A study of Mus musculus with 6 samples.

Results

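The 9 genes described here encode secreted Bmp and activin signals, proteins that restrain them and Id proteins that respond to them: Bmp2, Bmp4, Bmp7, Inhba, Fst, Bambi, Id1, Id2 and Id3. They were taken by a list of Ensembl gene identifiers that used no measured value, and all 9 had a row among the 25949 probe sets of the arrays. The study asked which genes respond at once to Ectodysplasin (Eda), a signal of the tumor necrosis factor family that acts through the receptor Edar and NF-κB in embryonic skin appendages. Eda-/- mammary buds of E13.5 embryos on a B6CBA background were incubated for 4 h with recombinant Fc-Eda-A1 protein (Fc-Eda) or without it, with 3 pools for each condition. The labels put each pool at about 20 buds from 5 to 6 embryos, with littermates of 3 litters. The written methods give that number of buds as the upper end of a range, and slightly fewer embryos for pools collected in the same way. Every embryo lacked Eda, controls included, and there was no wild-type group, so the comparison is of a null bud with and without added ligand. For each replicate number the buds of the same embryos were divided between both conditions, which gives 3 treatment-control pairs. Most of the surrounding mesenchyme had been removed by hand, and in such bulk samples a change in the make-up of the tissue and a change in RNA per cell cannot be told apart.

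Bmp ligands bind serine/threonine kinase receptors at the cell surface, which phosphorylate Smad proteins that then enter the nucleus, where the Id genes are among their best known targets. Activin A, a dimer of the Inhba product, uses related receptors and another group of Smads. Follistatin, the product of Fst, binds activin and, more weakly, Bmps outside the cell, while Bambi is a membrane protein that resembles a type I receptor but lacks the kinase. In skin appendages Bmps commonly hold back placode fate and activin and follistatin tune that inhibition, and in the mammary region Bmp4 has been linked to placode position and Bmp signaling to the nipple and the bud mesenchyme.

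The DNA upstream of 4 of the 9 genes, Bmp4, Inhba, Id2 and Id3, was taken from RefSeq on GRCm38.p6. These were the genes of the list for which the promoter reference held a sequence, and no measured value was used to choose them. The Id genes among them are textbook Smad targets. Each line gives the 250 bases before a transcript start, read on the strand of the gene. These are chr14:46390670-46390919 on the minus strand for Bmp4, chr13:16011601-16011850 on the plus strand for Inhba, chr12:25096093-25096342 on the minus strand for Id2 and chr4:136143572-136143821 on the plus strand for Id3. Capitals mark a loose form of the NF-κB motif, GGG and CC with any 5 bases between them, in Bmp4 and Inhba, and the Smad motifs GGCGCC and CAGAC in Id2 and Id3, on either strand.
Bmp4: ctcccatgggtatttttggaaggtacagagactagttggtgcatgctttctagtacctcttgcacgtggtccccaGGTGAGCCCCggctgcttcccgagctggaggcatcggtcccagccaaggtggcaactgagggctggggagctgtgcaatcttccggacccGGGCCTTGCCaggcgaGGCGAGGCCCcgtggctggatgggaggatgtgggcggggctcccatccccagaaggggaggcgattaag
Inhba: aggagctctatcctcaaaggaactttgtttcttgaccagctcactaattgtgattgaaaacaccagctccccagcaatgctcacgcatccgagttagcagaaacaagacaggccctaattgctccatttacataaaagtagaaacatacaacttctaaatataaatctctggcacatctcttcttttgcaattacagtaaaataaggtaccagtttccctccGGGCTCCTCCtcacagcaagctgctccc
Id2: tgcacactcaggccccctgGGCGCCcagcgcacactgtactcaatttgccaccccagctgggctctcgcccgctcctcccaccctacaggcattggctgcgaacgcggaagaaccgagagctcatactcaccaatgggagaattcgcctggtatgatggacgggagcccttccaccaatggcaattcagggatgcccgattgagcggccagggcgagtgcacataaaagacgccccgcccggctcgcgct
Id3: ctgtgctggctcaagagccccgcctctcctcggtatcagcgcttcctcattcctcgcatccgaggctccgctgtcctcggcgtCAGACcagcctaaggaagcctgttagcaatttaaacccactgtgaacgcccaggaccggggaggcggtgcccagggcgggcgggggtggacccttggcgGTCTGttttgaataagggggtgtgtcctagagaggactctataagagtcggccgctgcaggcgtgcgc
The loose NF-κB motif matched at 3 places upstream of Bmp4, at 1 upstream of Inhba, at none upstream of Id2 and at 5 upstream of Id3. The matches of Bmp4 and Inhba are marked, and those of Id3, some of which overlap each other, are not. It was present in 45.8% of the 32851 upstream windows of the same length, so its presence does not set these genes apart. GGCGCC matched once upstream of Id2 and in 9.59% of all windows. CAGAC matched at 2 places upstream of Id3 and in 42.2% of all windows. These matches are letters in a window and were not tested as binding sites. The upstream DNA of Bmp2, Bmp7, Fst, Bambi and Id1 was not analysed here.

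The values are log2 levels, 1 per array and gene, and since each gene has its own probes, levels were compared between arrays and not between genes. The control array of replicate 1 stood apart from the rest, with a median over all probe sets of 4.99 against 4.80 to 4.83 on the other 5 arrays. Its shift depended on the level. In pair 1 the median difference between Fc-Eda and control was -0.07 over all probe sets and 0.11 over the 7880 with a mean level between 6 and 10, the range that holds all 9 genes. In pairs 2 and 3 the latter median was -3.3e-05 and 0.0048. The difference of each gene is therefore given in every pair and without pair 1.

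After Fc-Eda the ligand genes Bmp2 and Bmp4 were higher in every pair, by means of 1.49-fold and 1.26-fold. Id1 was also higher in every pair, by a mean of 1.10-fold, as were Fst, Bmp7 and Inhba. Id2 and Id3 had means of 0.997-fold and 1.03-fold and differed in direction between pairs. The difference between ligand and Id genes was not tested. Fst was 1.32-fold higher on average, mostly in 2 of the 3 pairs, and Bmp7 and Inhba were 1.08-fold and 1.09-fold higher. Treatment was tested in limma, which fits every probe set and shares information on the variance among them, with the pairs as a block, and a q-value is the estimated share of false calls at that point of the list. None of the 9 genes passed a q-value of 0.05 in either direction, and neither did any other probe set (0%). Before adjustment, at p under 0.05 in limma, 3 of 9 were higher, Bmp2, Bmp4 and Fst, and 0 lower, beside 2.73% and 3.33% of all probe sets. Without pair 1 the number was 2 of 9 higher, Bmp2 and Bmp4, and 0 lower, beside 4.28% and 3.13% of all probe sets. Of the 9 genes, 6 were higher in all 3 pairs, as were 13.2% of all probe sets, and 0 of 9 were lower in all 3, as were 15.3%. These shares are over probe sets of every level, and the shift in pair 1 differed with level. In pairs 2 and 3 alone, 6 of 9 were higher in both, beside 28.4% of all probe sets, and 2 lower in both, beside 26%. The median of the mean differences was 0.12 over the 9 genes, 0.035 over the probe sets of level 6 to 10 and -0.02 over all probe sets. Without pair 1 these medians were 0.056, 0.0035 and 0.0067. The genes were listed with earlier results of these arrays known, so these counts describe them and are not a test of the group.

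**Figure D1:**
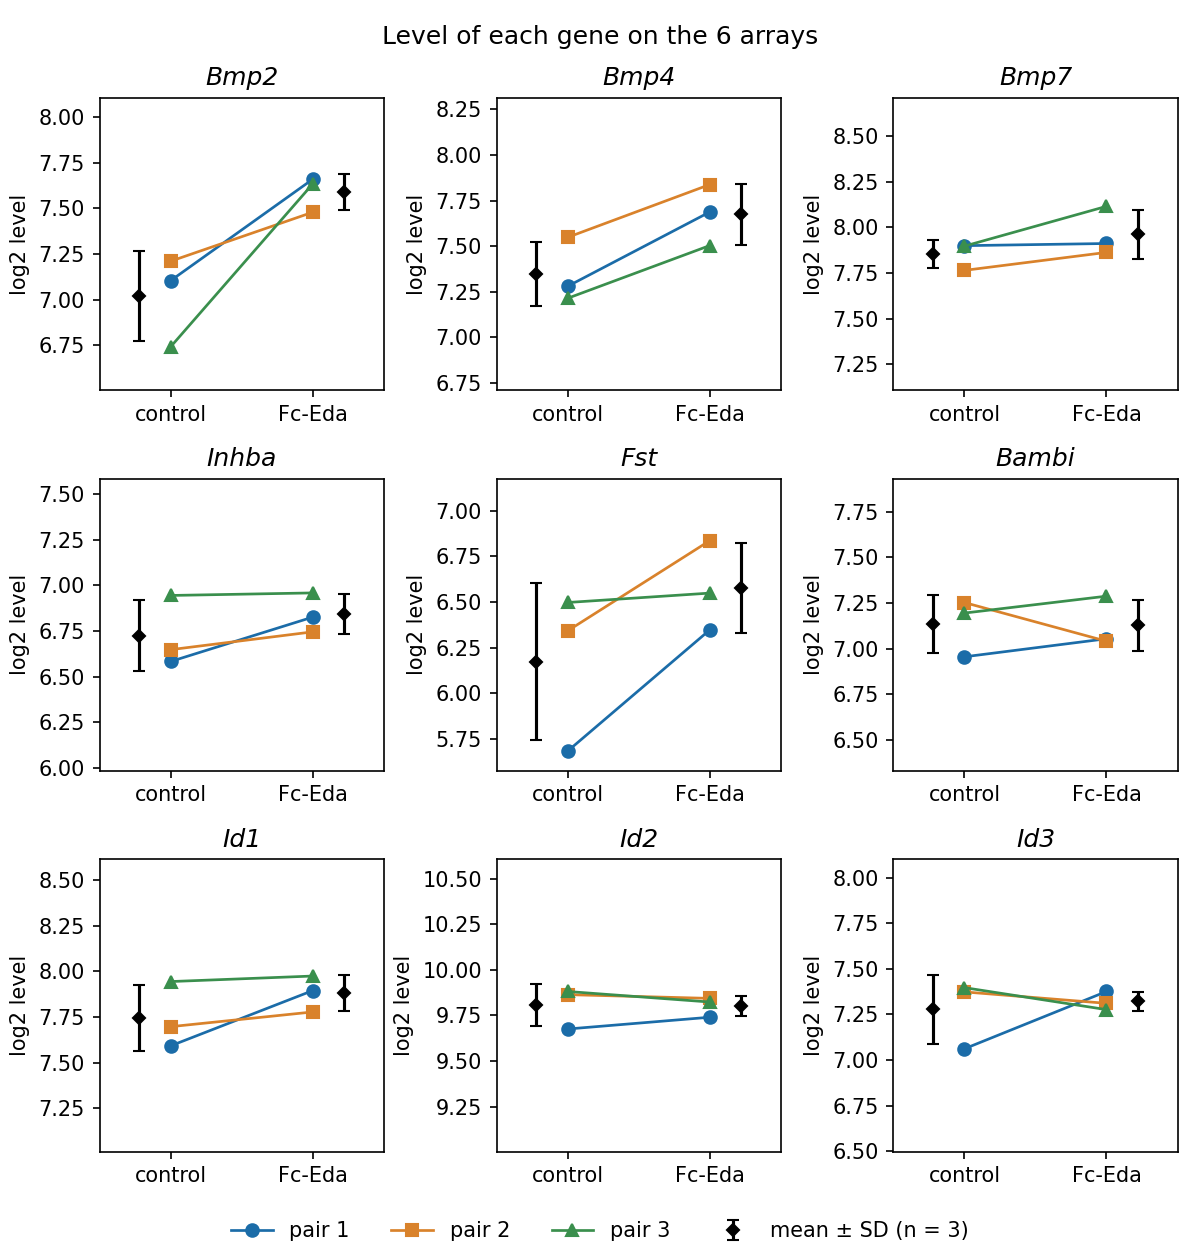
Log2 level (vertical axis, spanning the same range of units in each panel) of the 9 genes without and with Fc-Eda. Lines join the arrays of a pair and diamonds give the mean ± SD of 3 arrays. All 3 Bmp2 lines climb and the Fc-Eda arrays, from 7.48 to 7.66, lie above the controls, from 6.74 to 7.21, and the 3 Bmp4 lines run almost in parallel.

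Among the ligands, Bmp2 showed the largest difference of the 9 genes. Bmp2 (ENSMUSG00000027358_at) encodes a secreted Bmp that induces bone and patterns many epithelial organs. Its control levels were 7.10, 7.21 and 6.74 in replicates 1, 2 and 3, and its levels after Fc-Eda were 7.66, 7.48 and 7.63. All treated arrays were above all controls, which held for 1 of the 9 genes and for 3.98% of all probe sets. The reverse order held for 0 of the 9 genes and for 5.11% of all probe sets. The mean was 7.02 ± 0.25 (SD, n = 3) in controls and 7.59 ± 0.10 (SD, n = 3) after Fc-Eda, so the treated arrays also lay closer together. Bmp2 was higher by 0.56, 0.27 and 0.89 in the 3 pairs. The mean log2 difference of 0.57 (SE 0.14, unadjusted 95% interval of limma 0.22 to 0.92) is a 1.49-fold difference (q = 0.470 in limma). Of all probe sets, 0.516% had a higher mean difference. Without pair 1 the difference was 0.58, as large as with it.

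Whether Bmp2 was called depended on the test. A test of the Cyber-T type, which borrows variance from genes of like level and stands for one of the 3 tests in the study's methods, called Bmp2 higher (q = 0.0230) and none of the other genes, where it called 0.624% of all probe sets higher. The call was lost when pair 3 was left out (q = 0.148 in the Cyber-T type test), the pair with the largest difference and the lowest control level, where the mean difference was 0.41. IBMT, which lets the variance follow the level, did not call Bmp2 on all 3 pairs (q = 0.145) but called it without pair 3 (q = 0.0159), in a fit whose prior degrees of freedom came out infinite.

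Bmp4 differed by less than Bmp2 but more evenly. Bmp4 (ENSMUSG00000021835_at) is a close relative of Bmp2 and signals through the same receptors. It was at 7.28, 7.55 and 7.21 in the control buds and at 7.69, 7.84 and 7.50 after Fc-Eda. The groups overlapped, since the control of replicate 2 was above the treated array of replicate 3, yet within each pair the treated array was the higher one. The 3 pair differences were 0.41, 0.29 and 0.29, with an SD of 0.068, where the median SD over probe sets of level 6 to 10 was 0.111. The mean went from 7.35 ± 0.18 (SD, n = 3) to 7.68 ± 0.17 (SD, n = 3), and the mean log2 difference was 0.33 (SE 0.082), with an interval of 0.12 to 0.54 (q = 0.484 in limma). This is a 1.26-fold difference. The spread between replicates was thus shared by both arrays of a pair. The unadjusted p-value of limma was 0.0096 with the pairing and 0.037 without it. The q-value without the pairing was 0.962 in limma. Bmp7, Inhba, Fst and Id1 had the same q-value in that fit, so it does not measure the spread of Bmp4 alone. Without pair 1 the difference was 0.29, and the Cyber-T type test on pairs 2 and 3 alone called it (q = 0.0120), as it did 1.3% of all probe sets, while on all 3 pairs it did not (q = 0.110).

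Bmp7 (ENSMUSG00000008999_at), a ligand of another branch of the Bmp family, showed a smaller difference. Its levels were 7.90, 7.76 and 7.90 in controls and 7.91, 7.86 and 8.11 after Fc-Eda. The treated array of replicate 3 was the highest, and the other 2 treated arrays lay close to the controls. The pair differences were 0.012, 0.098 and 0.22, with a mean of 0.11 and an interval of -0.11 to 0.33 (q = 0.756 in limma). A difference above 1.26-fold lies outside that interval. Without pair 1 the mean difference was 0.16, and without pair 3 it was 0.055.

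Inhba (ENSMUSG00000041324_at), the subunit of activin A, was at 6.58, 6.65 and 6.95 in control buds and at 6.83, 6.75 and 6.96 after Fc-Eda. Replicate 3 was high in both conditions, and the treated array was the higher of each pair by 0.24, 0.098 and 0.014. The mean log2 difference was 0.12 with an interval of -0.11 to 0.34 (q = 0.753 in limma), and it was 0.056 without pair 1.

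**Figure D2:**
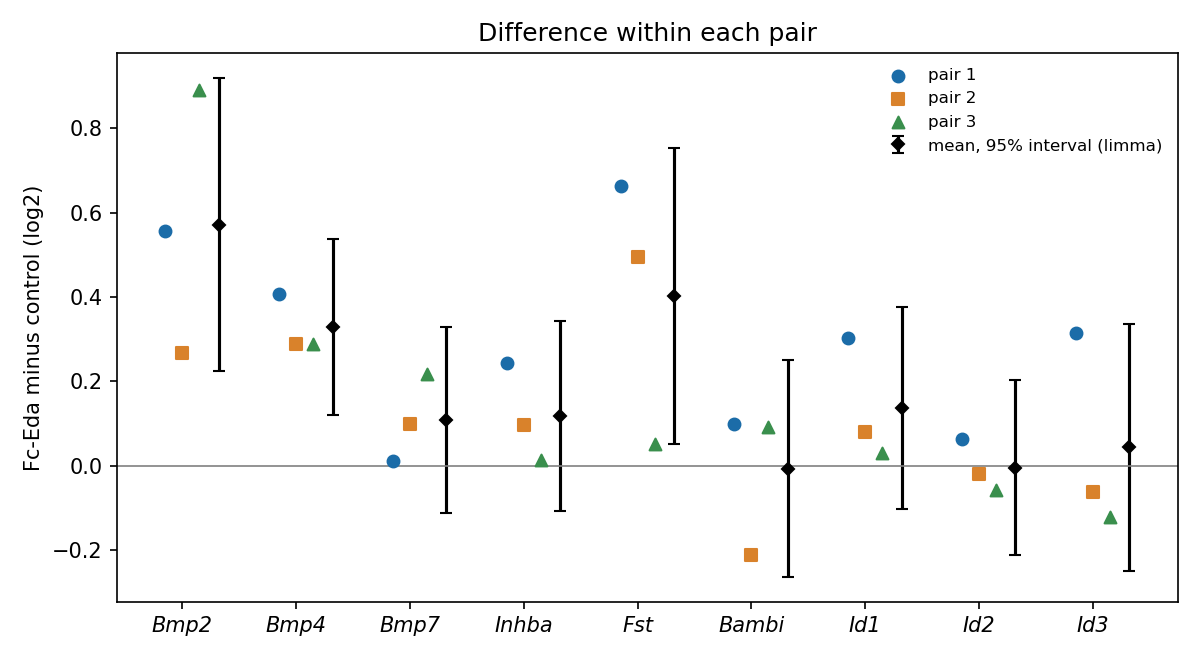
Log2 difference between Fc-Eda and control (vertical axis) for each gene within pairs 1, 2 and 3, with the mean and the 95% interval of limma as diamonds and bars. The unadjusted intervals of Bmp2, Bmp4 and Fst lie above 0 and those of the other 6 genes include it, and pair 1 gives the highest point in 7 of 9 genes.

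Of the proteins that restrain these signals, follistatin had the wider spread. Fst (ENSMUSG00000021765_at) was at 5.68, 6.34 and 6.50 in the control buds and at 6.35, 6.84 and 6.55 after Fc-Eda. The control of replicate 1 was the lowest array by far, and the groups overlapped. Fst was higher by 0.66 in pair 1 and 0.49 in pair 2, and by 0.051 in pair 3, the pair in which Bmp2 differed most. The mean went from 6.17 ± 0.43 (SD, n = 3) to 6.58 ± 0.25 (SD, n = 3), a log2 difference of 0.40 (SE 0.14), with an interval of 0.052 to 0.75 (q = 0.661 in limma). The corresponding fold was 1.32, and 1.21% of all probe sets had a higher mean difference. Leaving out pair 1 lowered the difference to 0.27, and leaving out pair 3 raised it to 0.58. In pairs 1 and 2 alone IBMT called Fst higher (q = 0.00106), with 0.987% of all probe sets, in the same fit with an infinite prior, and on all 3 pairs it did not (q = 0.378).

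Bambi (ENSMUSG00000024232_at), the receptor-like inhibitor and itself a known Bmp target, showed no common direction. Its levels were 6.96, 7.25 and 7.20 in controls and 7.05, 7.04 and 7.29 after Fc-Eda. Pairs 1 and 3 differed by 0.099 and 0.093 and pair 2 by -0.21, so that the mean was -0.0068 with an interval of -0.26 to 0.25 (q = 0.849 in limma). The sign of so small a mean turned when the arrays were centred on their medians, which gave 0.050, and it was -0.060 without pair 1.

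The Id genes encode helix-loop-helix proteins without a DNA-binding region, which bind E proteins and keep them from DNA. Id1 (ENSMUSG00000042745_at) was at 7.59, 7.70 and 7.94 in control buds and at 7.89, 7.78 and 7.97 after Fc-Eda. It was higher in every pair, by 0.30, 0.081 and 0.030, and the pair that held most of this was the one with the shifted control array. The mean difference was 0.14 with an interval of -0.10 to 0.38 (q = 0.751 in limma), and it was 0.055 without pair 1.

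Id2 (ENSMUSG00000020644_at) was at 9.68, 9.86 and 9.88 in controls and at 9.74, 9.84 and 9.82 after Fc-Eda, and the treated array was above its control in pair 1 alone. The pair differences were 0.064, -0.020 and -0.058, with a mean of -0.0045 and an interval of -0.21 to 0.20 (q = 0.850 in limma). A fold above 1.15 or below 0.863 lies outside that interval, and without pair 1 the mean was -0.039.

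Id3 (ENSMUSG00000007872_at) was at 7.06, 7.37 and 7.40 in controls and at 7.38, 7.31 and 7.28 after Fc-Eda. Only the control of replicate 1 stood apart, and the other 5 arrays lay between 7.28 and 7.40. Id3 differed by 0.31 in pair 1 but by -0.062 and -0.12 in pairs 2 and 3, with a mean of 0.044 and an interval of -0.25 to 0.34 (q = 0.814 in limma). Without pair 1 the mean was -0.091. Among the Id genes, Id2 and Id3 were thus higher in pair 1 and lower in both other pairs, and after cyclic loess normalization the differences of Id1, Id2 and Id3 were 0.093, -0.042 and 0.0016.

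**Figure D3:**
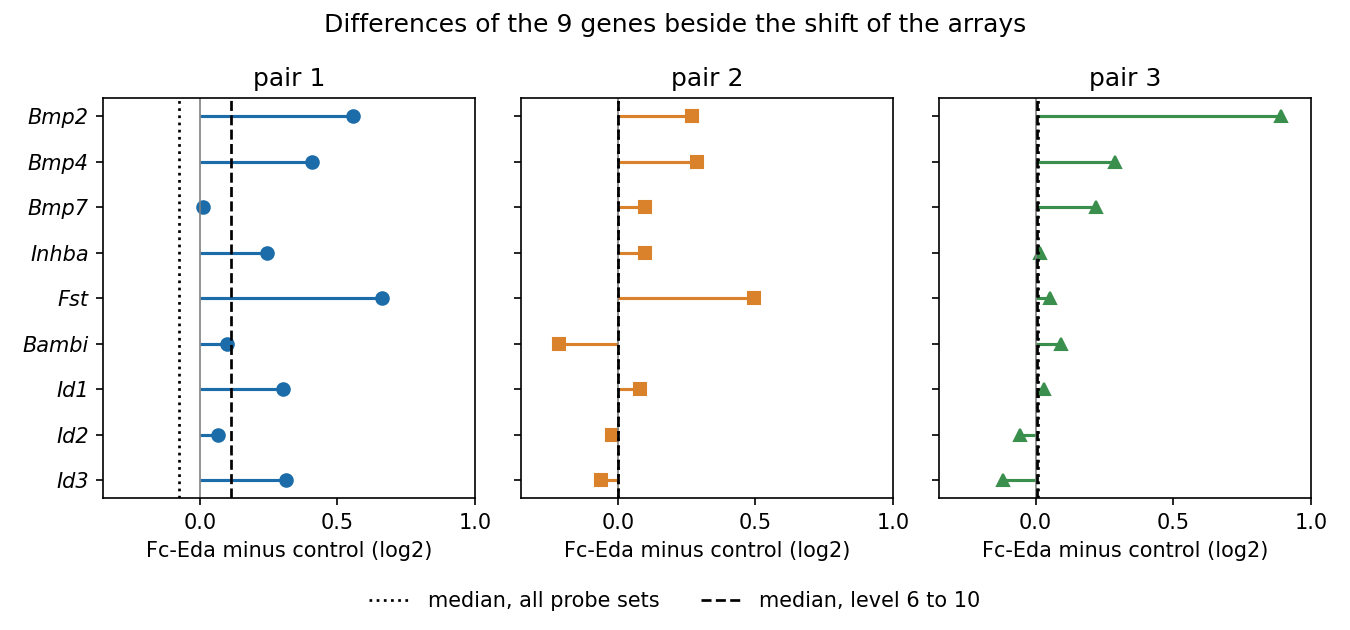
Log2 difference between Fc-Eda and control (horizontal axis) of the 9 genes in each pair, with the median difference over all probe sets (dotted) and over those of level 6 to 10 (dashed). In pair 1 all 9 genes were above 0 and the dashed line is at 0.11, and in pairs 2 and 3, where it is near 0, Bmp2, Bmp4, Bmp7, Inhba, Fst and Id1 were also above 0.

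The pairs can be compared over the 9 genes as well. In pair 1 all 9 were higher after Fc-Eda, as were 40.8% of all probe sets, and the median difference of the 9 genes was 0.30. Most probe sets of level 6 to 10 were higher in that pair too, with a median difference of 0.11. Their share was not computed, so 40.8% is too low a measure for genes of that level. In pair 2 the number was 6 of 9, beside 50.1% of all probe sets, and the median 0.098. In pair 3 it was 7 of 9, beside 52.3%, and the median 0.051. The control array of replicate 1 was the lowest of the 6 arrays for 6 of the 9 genes, Inhba, Fst, Bambi, Id1, Id2 and Id3, and for 44.3% of the probe sets of level 6 to 10. The difference in pair 1 exceeded that in both other pairs for 7 of the 9 genes and for 63.6% of those probe sets. The part of this array in the differences of Id1, Id3 and Fst was not tested. For Bmp2, Bmp4 and Bmp7 another control array was the lowest, and their differences after cyclic loess were 0.53, 0.28 and 0.064.

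**Figure D4:**
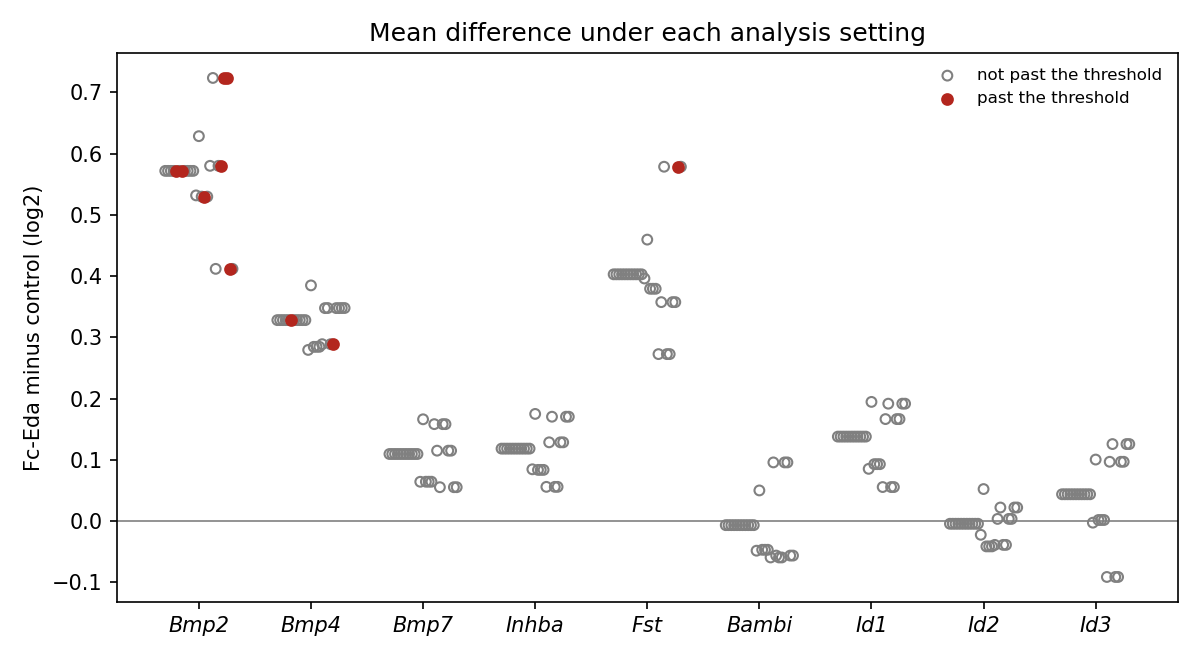
Mean log2 difference between Fc-Eda and control (vertical axis) for each gene in limma with the pairs as a block and under 24 other settings of normalization, test and pairs used, which share the same arrays. Filled points passed the threshold of their setting, which happened in 7 settings for Bmp2, 2 for Bmp4, 1 for Fst and 0 for the other 6 genes.

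Over these settings the difference of Bmp2 ranged from 0.41 to 0.72, that of Bmp4 from 0.28 to 0.38 and that of Fst from 0.27 to 0.58. Bmp7 ranged from 0.055 to 0.17, Inhba from 0.056 to 0.17 and Id1 from 0.055 to 0.19, all above 0 and none past a threshold. Bambi, from -0.060 to 0.096, Id2, from -0.042 to 0.052, and Id3, from -0.091 to 0.13, took either sign. The settings that called Bmp2 higher were the Cyber-T type test on all pairs, without pair 1 and without pair 2, the same test after cyclic loess, IBMT without pair 2 and without pair 3, and the methods' t-test in its unpaired form before adjustment. They called 0.624%, 1.3%, 0.316%, 0.717%, 0.208%, 0.987% and 1.98% of all probe sets higher, in that order. Those that called Bmp4 higher were the Cyber-T type test without pair 1 and the methods' t-test in its paired form before adjustment, which called 3.09% of all probe sets higher. None of the 9 genes was called lower in any of these settings.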

How the data were processed

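RNA of 6 pools of mammary buds was hybridized to Affymetrix Mouse Exon 1.0 ST arrays. The values deposited by the authors are log2 levels, 1 for each array and Ensembl gene identifier, and RMA is named in the submitters' processing notes. Software versions, genome build and probe set definition are not given in the sources used here, and no value was missing. The identifiers of the genes came with their list. The reference table paired 0 of the 25949 identifiers with a symbol, so the pathway lists, the cell type markers and the check of known Eda response genes, all listed by symbol, were not analysed here. Likeness between genes across arrays is not given, since the 6 arrays form 3 pairs.

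All probe sets were fitted with limma 3.58.1 (R 4.3.3), with treatment and replicate number as terms, and p-values were turned into Storey q-values with a threshold of 0.05. Intervals are unadjusted 95% limits of that fit. The pairing comes from the labels and methods, and deviations from the condition means correlated with r = 0.079, 0.29 and 0.29 within pairs 1, 2 and 3. IBMT (loess span 0.75) and a Cyber-T type test (window 101, prior weight 10) were written out from their formulas. Default settings of the authors' programs may differ. limma, IBMT and the Cyber-T type test were tested on simulated data, and the methods' t-test was not. The simulated noise was normal, with a spread set by the level alone, and no array was shifted. It therefore does not show how these tests behave on the arrays used here. An exact permutation test over 3 pairs cannot go below 0.25 and was not used. The rule for genes given by name was every gene of the list. The genes, lists and tests were chosen with earlier results of these data known. The number of arrays limits the precision.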

Additional observations from a re-analysis of the deposited data

How the results depend on the processing

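In limma with the replicate block, 0 probe sets and 0 of the 9 genes were higher or lower at a q-value of 0.05. With Benjamini-Hochberg adjustment, quantile normalization and cyclic loess these counts were also 0. No replicate block gave 3 probe sets higher and 0 of the 9 genes. Limma with an intensity trend and robust moderation together gave 90 higher and 6 lower, IBMT 88 and 6, probe sets above the median level 85 and 6, and centring each array on its median 56 and 1, with 0 of the 9 genes in each. The Cyber-T type test gave 162 and 31, with 1 of the 9 genes, Bmp2. The methods' t-test without adjustment gave 802 and 696 when paired, with 1 gene, Bmp4, and 515 and 539 when unpaired, with 1 gene, Bmp2. After Benjamini-Hochberg adjustment the methods' t-test gave 0 and 1 when paired and 0 and 0 when unpaired. The combined settings, the adjusted t-tests, and both other tests on 2 pairs only were chosen after seeing the data. Cyclic loess gave 186 and 61 with the Cyber-T type test, with 1 gene, Bmp2, and 18 and 1 with IBMT.

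With 1 pair left out, limma called 0 to 10 probe sets higher and 0 to 1 lower, and 0 of the 9 genes. IBMT called 0 and 0 without replicate 1, 54 and 2 without replicate 2, with 1 of the 9 genes, Bmp2, and 256 and 269 without replicate 3, with 2, Bmp2 and Fst. The Cyber-T type test called 337 and 175 without replicate 1, with 2 of the 9 genes, Bmp2 and Bmp4, then 82 and 8 without replicate 2, with 1, Bmp2, and 78 and 25 without replicate 3, with 0. The cause of these changes was not tested.

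The sign turned in 3 genes, none of which was called in any setting. Bambi was at 0.050 and Id2 at 0.052 with centring, and Id3 at -0.0028 with quantile normalization. With 1 pair left out, Bambi ranged from -0.060 to 0.096, with the latter without replicate 2. Id2 ranged from -0.039 to 0.022 and was above 0 without replicate 2, at 0.0034, and without replicate 3. Id3 ranged from -0.091, without replicate 1, to 0.13. The other 6 genes kept their direction in every setting run. No background level was used, so how far each gene lies above it was not judged.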
